A study of Homo sapiens with 6 samples.

Results

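The chemokine genes *CXCL1*, *CXCL2*, *CXCL3*, *CXCL5*, *IL8*, *CXCL10*, *CXCL11*, *CCL2*, *CCL5* and *CCL20* were examined in PC3 cells with and without knockdown of paxillin. They were taken by exact match of their symbol in the deposited gene table, and all 10 were found among its 23285 genes. PC3 is a prostate cancer line that was derived from a bone metastasis. One group of 3 libraries came from PC3 cells transfected with a non-specific siRNA, and the other 3 came from PC3 cells transfected with an siRNA against paxillin (*PXN*), a focal adhesion adaptor. Both groups were collected at 72 h, in the same serum-containing medium, and carry the replicate numbers 1 to 3. The labels do not say whether the replicates were separate cultures, and the p-values therefore cover no more than the spread among these 6 libraries, which may be technical. In bulk RNA, fewer cells that make a transcript and less of it per cell cannot be told apart.

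Chemokines are small secreted proteins that bind G-protein-coupled receptors and direct the migration of leukocytes and other cells. The CXC ligands that carry a glutamate-leucine-arginine (ELR) motif, which are *CXCL1*, *CXCL2*, *CXCL3*, *CXCL5* and *IL8* (also called *CXCL8*), act mainly through CXCR2, attract neutrophils and favour vessel growth. *CXCL10* and *CXCL11* lack that motif, bind CXCR3 on activated T and natural killer cells, and are classic interferon-induced genes. The CC ligand *CCL2* attracts monocytes through CCR2, *CCL5* attracts T cells and monocytes, and *CCL20* is the ligand of CCR6. NF-kB is a main activator of many of these genes, and PC3 is known as a line that secretes interleukin-8.

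The stretches of promoter below are shown because 7 of the 8 chemokine genes with a promoter window in the RefSeq table share 1 short motif. RefSeq windows (GRCh38.p14, 250 bases before to 50 after the gene start) were matched by symbol for 8 of the 10 genes, *IL8* by its current symbol *CXCL8*. No window was matched for *CCL2* and *CCL5*, so their promoters were not searched. The NF-kB-type core GGAATTTCC, searched on both strands, was present in the windows of *CXCL1*, *CXCL2*, *CXCL3*, *CXCL5*, *IL8*, *CXCL10* and *CXCL11*. It was present in 162 of 35116 RefSeq windows, or 0.461%. No other form of the NF-kB core was searched. The stretches of *CXCL1*, *CXCL2* and *CXCL3* are closely alike, so their matches are not separate cases. Each line gives the strand of the gene, 5′ to 3′, with the core in capitals and up to 20 bases on each side.
CXCL1, chr4:73869295-73869343, plus strand: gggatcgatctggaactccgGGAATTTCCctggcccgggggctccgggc
CXCL2, chr4:74099244-74099292, minus strand: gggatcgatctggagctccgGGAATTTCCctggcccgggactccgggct
CXCL3, chr4:74038739-74038787, minus strand: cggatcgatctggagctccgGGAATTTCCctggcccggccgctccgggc
CXCL5, chr4:73998739-73998787, minus strand: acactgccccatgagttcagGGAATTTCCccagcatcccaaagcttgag
IL8, chr4:73740458-73740506, plus strand: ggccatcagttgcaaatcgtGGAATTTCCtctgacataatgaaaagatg
CXCL10, chr4:76023645-76023693, minus strand: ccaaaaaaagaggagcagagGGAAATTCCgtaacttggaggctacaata
CXCL11, chr4:76036117-76036165, minus strand: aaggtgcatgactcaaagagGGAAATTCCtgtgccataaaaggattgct

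In the 5 ELR genes the core lay on the strand of the gene and began 77 to 91 bases before its start. In *CXCL10* and *CXCL11* it lay on the opposite strand, where it reads GGAAATTCC along the gene, 176 and 75 bases before the start. Aligned on the core without gaps, the 49 bases of *CXCL1* were identical to those of *CXCL3* at 45 positions and to those of *CXCL2* at 41, but at 21 for *CXCL5* and 22 for *IL8*. A second motif, GAAANNGAA, is the core of the interferon-stimulated response element and was also searched on both strands. It was found on the strand of the gene in the windows of *CXCL10* (221 bases before the start), *CXCL2* (217) and *CXCL3* (233), and in 8.11% of all RefSeq windows. The matches of the motifs did not overlap each other. The window of *CXCL11*, the other interferon-induced gene, held no match, nor did those of *CXCL1*, *CXCL5*, *IL8* and *CCL20*. Of the matches to GAAANNGAA only that of *CXCL10* is printed, with the motif in capitals.
CXCL10, chr4:76023690-76023738, minus strand: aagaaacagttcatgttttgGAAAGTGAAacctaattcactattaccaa

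The libraries held 22209765 to 33627645 reads, with replicate 3 the shallowest in both groups. *PXN* was at 718 to 854 CPM (counts scaled to library size) with non-specific siRNA and at 55.7 to 91.7 CPM with paxillin siRNA, highest in replicate 3 (log2 fold change -3.54 ± 0.23 SE, adjusted p = 0.00613, 0.0819 or 0.0762 without non-specific siRNA replicate 1 or 2, 0.555 without replicate 1 of both groups and 0.0634 by limma on unfiltered log2(FPKM + 1)). Paxillin siRNA replicate 3 stood apart from its group. Its log2 CPM correlated across genes at 0.973 and 0.971 with the other paxillin siRNA libraries and at 0.986 with non-specific siRNA replicate 3, and genes are not independent replicates. Of the 15876 genes kept by a count filter, 1.18% passed the edgeR quasi-likelihood test between the groups (188 genes, Benjamini-Hochberg adjusted p under 0.05). With the replicate number as a block in the fit, 11.7% passed as higher and 10.7% as lower. The simple epithelial keratin genes *KRT8* and *KRT18* and the filament gene *VIM* were at 171 CPM or more in every library. *KLK3*, which encodes prostate-specific antigen, had 1 read in 1 of the 6 libraries.

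Among the 10 chemokine genes, those of the ELR family had the highest levels. Levels per length, in fragments per kilobase scaled to library size (FPKM), are the scale on which the genes can be compared. *CXCL1* had a mean of 7.73 FPKM over the 6 libraries (4.06 to 11.7), *CXCL2* 7.66 (3.88 to 12.1) and *IL8* 7.14 (4.25 to 10.6), so their ranges lay on top of each other. *CXCL5* at 3.49 FPKM (2.53 to 4.79) and *CXCL3* at 3.47 (1.54 to 6.11) followed, again with overlapping ranges. The next gene, *CCL5*, was at 0.340 FPKM (0.216 to 0.555), with no library reaching the lowest value of *CXCL3*. *CXCL11*, *CCL20*, *CCL2* and *CXCL10* had means of 0.140, 0.136, 0.109 and 0.0823 FPKM, and their ranges overlapped. The 5 ELR genes made up 95.9% to 98.4% of the summed FPKM of the 10 genes in each library. Among all 23285 genes, mean FPKM placed *CXCL1* at rank 3633, *IL8* at 3901, *CXCL3* at 6793 and *CXCL10* at 15506.

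**Figure D1:**
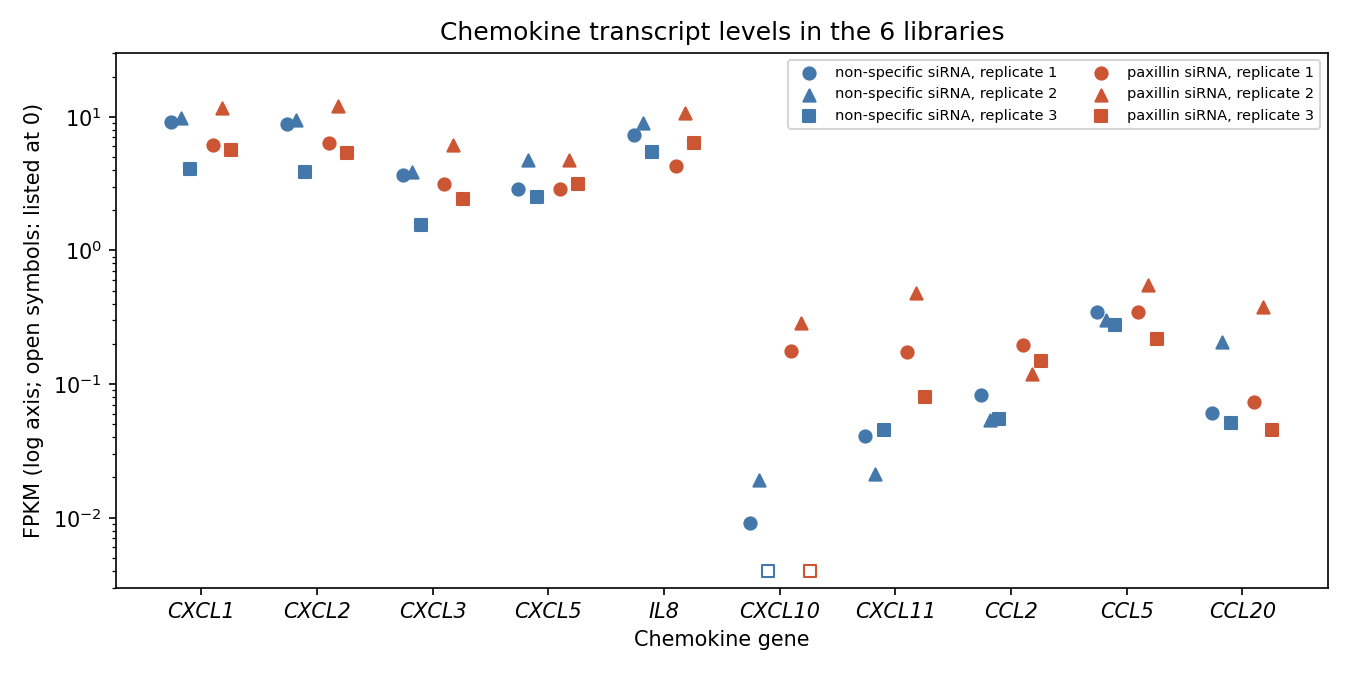
Points give the FPKM of each of the 10 chemokine genes (x axis) in each of the 6 libraries on a log axis, with colour for the siRNA and symbol shape for the replicate number; open symbols stand for values listed at 0. The ELR genes on the left lie between 1.54 and 12.1 FPKM in every library, and *CXCL10* is listed at 0 in replicate 3 of both groups.

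None of the ELR genes passed the test between the groups. The 5 genes lie on chromosome 4 of hg19, *IL8* at 74606223 to 74609433, *CXCL1* at 74735109 to 74737019, *CXCL5* at 74861359 to 74864416, *CXCL3* at 74902312 to 74904490 and *CXCL2* at 74962754 to 74964997. Of the 10 chemokine genes, 6 passed the count filter, and 0 of these 6 were called by edgeR with or without the replicate block, by DESeq2 or by limma-voom. At an unadjusted p under 0.05, 0 of the 6 passed without the block and 1 (*CXCL3*) with it, against 3565 and 5694 of all 15876 genes.

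*IL8*, the best-known neutrophil attractant of the family, was at 34.8, 46.3 and 24.8 CPM in replicates 1, 2 and 3 with non-specific siRNA. With paxillin siRNA it was at 22.0, 51.6 and 31.6 CPM. The 2 groups overlapped fully, and the lowest and the highest value both belonged to the paxillin siRNA group. Its log2 fold change was -0.01 ± 0.33 (SE, 95% interval -0.77 to 0.75, adjusted p = 0.989). In this fit, changes up to about that size in either direction were not resolved. With the replicate block the log2 fold change was -0.05 ± 0.17 (95% interval -0.42 to 0.32, adjusted p = 0.874).

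*CXCL1*, also known as GRO-alpha, was at 27.6, 30.4 and 11.8 CPM in the control replicates, those with non-specific siRNA, and at 19.6, 37.1 and 17.3 CPM in the replicates with paxillin siRNA. Replicate 3 was lowest and replicate 2 highest in both groups. Within a group its highest library exceeded its lowest 2.58-fold with non-specific and 2.14-fold with paxillin siRNA, against a ratio of group means of 1.06. The log2 fold change was 0.09 ± 0.40 (95% interval -0.83 to 1.00, adjusted p = 0.919). With the replicate block it was 0.11 ± 0.18 (95% interval -0.27 to 0.50, adjusted p = 0.688).

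*CXCL2*, GRO-beta, followed the same order of libraries, with 26.2, 28.6 and 11.0 CPM under non-specific siRNA and 20.1, 37.7 and 16.1 CPM under paxillin siRNA. Its log2 fold change was 0.17 ± 0.41 (95% interval -0.78 to 1.11, adjusted p = 0.843). The replicate block gave *CXCL2* 0.18 ± 0.17 (95% interval -0.19 to 0.55, adjusted p = 0.475). *CXCL3*, GRO-gamma, was at 10.6, 11.6 and 4.32 CPM and at 9.69, 18.6 and 7.19 CPM. It had the largest estimate of the 6 tested genes, 0.42 ± 0.44 (95% interval -0.60 to 1.44, adjusted p = 0.606, and 0.135 with the replicate block). The library spread of 2.68-fold and 2.59-fold within the groups again exceeded the 1.34-fold ratio of their means. Replicate 2 was highest and replicate 3 lowest in both groups, so part of this spread was shared by replicate number. With the replicate block the log2 fold change of *CXCL3* was 0.43 ± 0.19 (95% interval 0.0059 to 0.84, not adjusted for the number of genes).

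*CXCL5*, known as ENA-78 and also a CXCR2 ligand, had the smallest spread of the ELR genes within the paxillin siRNA group (highest to lowest 1.58-fold), while *IL8* had the smallest with non-specific siRNA (1.87-fold against 2.12-fold). *CXCL5* was at 17.5, 31.3 and 14.8 CPM with non-specific siRNA and at 19.3, 30.4 and 19.9 CPM with paxillin siRNA, with replicate 2 highest in both groups. The log2 fold change was 0.13 ± 0.30 (95% interval -0.57 to 0.83, adjusted p = 0.834). The replicate block gave *CXCL5* 0.17 ± 0.14 (95% interval -0.12 to 0.47, adjusted p = 0.394).

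Compared by replicate number, the libraries of number 1 differed from those of numbers 2 and 3. In number 1 the log2 ratio of paxillin to non-specific siRNA was above 0 for 1 of the 5 ELR genes, and it was -0.66 for *IL8* and -0.49 for *CXCL1*. In number 2 it was above 0 for 4 of 5, at 0.16 for *IL8* and 0.28 for *CXCL1*, and in number 3 for 5 of 5, at 0.35 and 0.56. The summed level of the 5 genes was 117, 148 and 66.7 CPM in the non-specific and 90.7, 175 and 92.2 CPM in the paxillin siRNA libraries. The group means, 111 ± 41.1 and 119 ± 48.5 CPM (SD, n = 3), gave p = 0.8 in an exact two-sided permutation test, in which 3 libraries against 3 cannot go below 0.1.

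**Figure D2:**
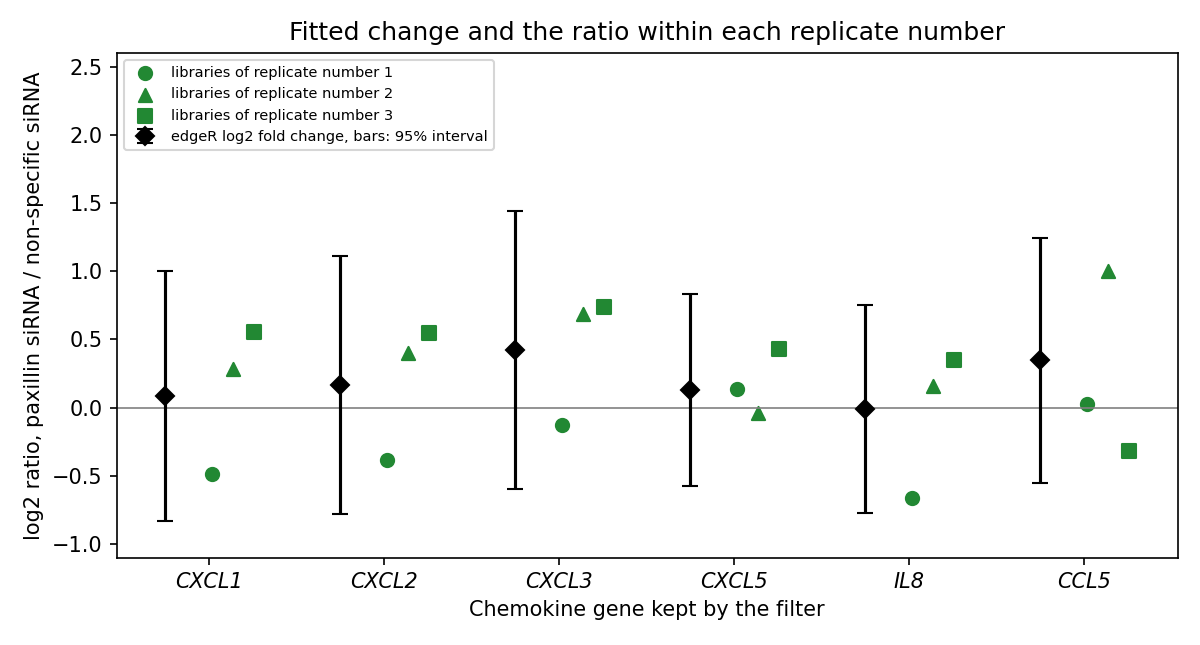
Black diamonds give the edgeR log2 fold change of the 6 chemokine genes kept by the filter (x axis) with its 95% interval, and green symbols give the log2 CPM ratio of paxillin to non-specific siRNA within each replicate number. All 6 intervals, from the fit without the replicate block, span 0. The ratios of *CXCL1*, *CXCL2*, *CXCL3* and *IL8* in replicate number 1 lie below 0.

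*CXCL1*, *CXCL2* and *CXCL3* are close paralogs, so their reads may be partly shared or split by the authors' estimation. Of the 50-base windows in the longest GENCODE v29 protein-coding transcript, 5.73% for *CXCL1*, 9.24% for *CXCL2* and 5.26% for *CXCL3* occurred unchanged in another of these 3 genes. The share was 0 for the other 7 chemokine genes. The sources used here do not give the read length. The gene with the pattern most like that of *CXCL1* over the 6 libraries, among 14432 tested genes with a mean of at least 1 CPM, was *CXCL2*. The root mean square difference of their centred log2 CPM was 0.056. *VGF* (0.11) and *WDR66* (0.13) came next, while *CXCL3* was at rank 8, *IL8* at rank 81 and *CXCL5* at rank 114.

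*CXCL10* and *CXCL11* were barely detected with non-specific siRNA and had more reads in paxillin siRNA replicates 1 and 2. Neither passed the count filter, so the main fit gives no test for them. They are listed at one hg19 locus (chromosome 4, 76932333 to 77033955) together with *ART3*, and the sources used here do not say whether counting used strand. Values for these genes are given as single reads, the estimated count divided by what 1 read is worth in that library.

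*CXCL10*, which encodes the CXCR3 ligand IP-10, had 1, 2 and 0 reads in non-specific siRNA replicates 1, 2 and 3 and 20, 30 and 0 reads in the paxillin siRNA replicates. The groups overlapped because replicate 3 had no read in either. Scaled to library size, the ratio of paxillin to non-specific siRNA was 20.6 in replicate number 1 (exact 95% counting interval 3.29 to 854) and 14.6 in number 2 (3.69 to 126). In number 3 no ratio can be given, since a count of 0 allows up to 3 reads, or 0.142 CPM with non-specific and 0.136 CPM with paxillin siRNA. These limits and intervals cover counting error only.

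*CXCL11*, I-TAC, had 6, 3 and 4 reads in the control libraries and 26, 66 and 8 after paxillin siRNA. Its 3 paxillin siRNA libraries, at 0.785, 2.11 and 0.361 CPM, all lay above the non-specific siRNA libraries at 0.178, 0.107 and 0.173 CPM. The ratio was 4.46 in replicate number 1 (counting interval 1.80 to 13.3), 21.4 in number 2 (6.99 to 106) and 1.92 in number 3 (0.515 to 8.73), where the interval includes 1. An exact two-sided permutation test on log2(CPM + 0.1) gave p = 0.1, the smallest this design allows. Among the 21155 genes with a count in at least 1 library, the paxillin siRNA libraries lay wholly above the others for 12.5%. Among the 10 chemokine genes this held for 2, *CXCL11* and *CCL2*.

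When the count filter was left out, edgeR gave *CXCL10* a log2 fold change of 3.72 ± 1.26 (SE; adjusted p = 0.161) and *CXCL11* 2.78 ± 0.68 (adjusted p = 0.0793). In that fit 0 of the 10 chemokine genes and 1.43% of all genes were called, and 3 of the 10 (*CXCL10*, *CXCL11* and *CCL2*) had an unadjusted p under 0.05, as did 3840 of all 21155 genes. Without paxillin siRNA replicate 3 both genes passed the filter and were called higher, *CXCL10* at 4.31 (adjusted p = 0.0103) and *CXCL11* at 3.20 (adjusted p = 0.0121). In that fit 7.24% of all genes were called higher. The same 2 genes were called without replicate 3 of both groups, at 3.78 and 3.31 (adjusted p = 0.0115 and 0.0198, 7.67% of all genes called higher). In both fits they passed the filter only through the paxillin siRNA libraries, so a difference was built into their passing it. No chemokine gene was called when any other single library was left out.

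*CCL2*, the monocyte attractant MCP-1 (chromosome 17, 32582296 to 32584220), had 5, 3 and 2 reads in the control libraries and 12, 7 and 6 after paxillin siRNA. The groups did not overlap on the CPM scale, at 0.104 to 0.142 against 0.226 to 0.374 CPM. Over all libraries the ratio was 2.48 with a counting interval of 1.15 to 5.78, which leaves out the spread between libraries. The unfiltered edgeR fit gave a log2 fold change of 1.29 ± 0.51 (adjusted p = 0.216).

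*CCL5*, RANTES (chromosome 17, 34198496 to 34207377), was the only CC ligand of the set to pass the filter. It was at 1.17, 1.00 and 0.898 CPM with non-specific siRNA and at 1.20, 2.00 and 0.722 CPM with paxillin siRNA. Replicate 2 was high and replicate 3 low in the paxillin siRNA group, on either side of all 3 non-specific siRNA libraries. The log2 fold change was 0.35 ± 0.39 (95% interval -0.55 to 1.25, adjusted p = 0.631). The replicate block gave *CCL5* 0.28 ± 0.31 (95% interval -0.38 to 0.95, adjusted p = 0.545). The patterns most like it over the 6 libraries were those of *FRAS1*, *MATL2963* and *PLEKHM1P*, at root mean square differences of 0.10, 0.12 and 0.14.

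*CCL20*, MIP-3-alpha (chromosome 2, 228678558 to 228682280), had 4, 13 and 2 reads in the control libraries and 5, 24 and 2 after paxillin siRNA. As with the ELR genes, replicate 2 was highest in both groups. The ratio in replicate number 2 was 1.79, with a counting interval of 0.877 to 3.83, and the unfiltered fit gave a log2 fold change of 0.64 ± 0.83 (adjusted p = 0.717).

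**Figure D3:**
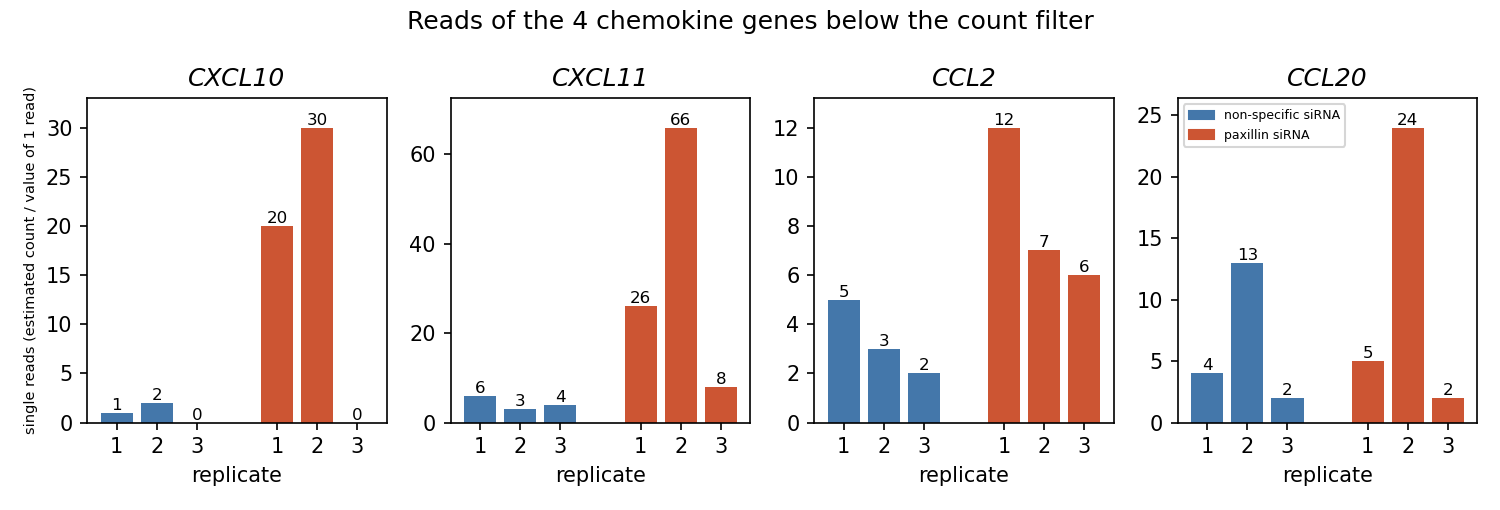
Bars give single reads of *CXCL10*, *CXCL11*, *CCL2* and *CCL20* in each library, by replicate number, in blue for non-specific and red for paxillin siRNA; each panel has its own axis from 0. The largest value is 66 reads, for *CXCL11* in paxillin siRNA replicate 2, and the non-specific siRNA libraries hold at most 13.

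The other ligands detected were mainly *CXCL6*, *CXCL16*, *CCL26* and *CCL28*, with means of 3.03, 2.18, 2.05 and 0.973 FPKM, all above *CCL5*. Of 13 other CXC, CX3C and XC ligand genes, 2 passed the count filter, *CXCL6* and *CXCL16*. Of these, 0 were called by edgeR without the replicate block, DESeq2 or limma-voom. *CXCL6*, an ELR ligand next to *IL8*, was at 12.1 ± 2.91 CPM with non-specific and 12.1 ± 2.54 CPM with paxillin siRNA (SD, n = 3; adjusted p = 0.999). *CXCL16*, a membrane-bound ligand of CXCR6, was at 9.91 ± 5.46 and 14.6 ± 3.89 CPM (adjusted p = 0.424), and the replicate block gave it an adjusted p of 0.0309. Of 25 other CC ligand genes, 4 were tested and 0 called by these 3 tools, with *CCL26* at 3.11 ± 1.22 and 1.98 ± 0.758 CPM and *CCL28* at 1.95 ± 0.581 and 2.15 ± 0.546 CPM. Neither list had a tested member at an unadjusted p under 0.05, and 6 of the 25 CC genes had no read in any library.

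Among 23 chemokine receptor genes, 7 passed the count filter. Of these, *CCRL2* and *CCR2* were called higher with paxillin siRNA, where 1.18% of all tested genes were called in either direction. *CCRL2*, an atypical receptor that binds chemerin without signalling, was at 7.68, 9.48 and 8.50 CPM in the non-specific and 21.3, 24.6 and 18.0 CPM in the paxillin siRNA libraries. All 3 libraries with paxillin siRNA were higher, and the gene rose 2.49-fold (log2 fold change 1.32 ± 0.17 SE, adjusted p = 0.029). *CCR2*, the receptor of *CCL2*, rose from 3, 1 and 1 reads to 16, 19 and 12 (log2 fold change 3.11 ± 0.49, adjusted p = 0.0404). It passed the filter only through the paxillin siRNA libraries, and DESeq2 gave it no adjusted p. Both calls ended when non-specific siRNA replicate 1, 2 or 3 or paxillin siRNA replicate 1 or 2 was left out, with adjusted p of 0.057 to 0.195 for *CCRL2* and 0.0786 to 0.195 for *CCR2*. With the replicate block 3 receptor genes were higher and 1 lower, where 11.7% and 10.7% of all genes were. The receptor of the ELR ligands, *CXCR2*, had 4, 5 and 4 reads and then 14, 8 and 6, and that of *CXCL10* and *CXCL11*, *CXCR3*, had at most 2 reads in any library. Both were untested.

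In the NF-kB list, the calls depended on the test. All 20 of its subunit, kinase and inhibitor genes were tested, and 0 passed by edgeR without the block or by limma-voom. In edgeR 3 had an unadjusted p under 0.05, against 3565 of all 15876 genes. By DESeq2 *NFKBIA* and *BIRC3* were higher (adjusted p = 0.0346 and 0.0326), and its counts over all genes are given in the next paragraph. Without paxillin siRNA replicate 3, edgeR called the same 2 genes (0.0159 and 0.0212), where 7.24% of all genes were called higher. *NFKBIA*, the inhibitor that NF-kB induces against itself, was at 62.1, 69.8 and 44.3 CPM with non-specific and 112, 152 and 66.6 CPM with paxillin siRNA. As with *CXCL1*, replicate 2 was highest and replicate 3 lowest in each group (log2 fold change 0.91 ± 0.30, adjusted p = 0.136). The subunit gene *RELA* was at 116 ± 13.5 and 96.7 ± 0.478 CPM (adjusted p = 0.269). In the fit with the replicate block, 5 genes of this list were higher and 0 lower, against the 11.7% and 10.7% of all genes given above. They were *NFKBIA* (adjusted p = 0.00113) and, named after their values were seen, *BIRC3*, *MAP3K14*, *TNFAIP3* and *TRAF1*. The median log2 fold change of the list was 0.19, that of the 6 tested chemokine genes 0.15 and that of all genes tested 0.00.

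Of 15 genes for NF-kB-inducing cytokines, their receptors and adaptors, 13 were tested. By edgeR 0 passed, with 5 at an unadjusted p under 0.05 (3565 of all 15876 genes). By DESeq2 3 were higher and 1 lower, against 783 and 812 of all genes, and 0 passed by limma-voom. In the blocked fit 3 were higher and 2 lower, against 11.7% and 10.7% of all genes. *LTBR*, the lymphotoxin beta receptor, was at 111 ± 7.31 and 163 ± 17.6 CPM (adjusted p = 0.0830), and the replicate block gave it an adjusted p of 0.0118. *IRAK1*, a kinase of interleukin-1 signalling, was at 356 ± 30.8 and 292 ± 29.1 CPM (adjusted p = 0.279).

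Interferon signalling and the sensing of double-stranded RNA are known inducers of *CXCL10* and *CXCL11*. In these libraries 3 RNA sensor genes were called higher with paxillin siRNA, and their link to *CXCL10* and *CXCL11* was not tested. The groups differ in the siRNA they received, so loss of paxillin and a response to the siRNA itself cannot be told apart. Of 8 tested RNA sensor genes, 3 were higher and 0 lower without the block, against 1.18% of all genes in either direction. With the block 4 were higher and 0 lower, against 11.7% and 10.7%. Without paxillin siRNA replicate 3, 3 were higher and 1 lower, where 7.24% of all genes were called higher. *IFIH1*, which encodes the cytosolic sensor MDA5, rose from 9.92, 16.0 and 8.57 to 59.1, 95.9 and 45.6 CPM (log2 fold change 2.54 ± 0.33, adjusted p = 0.0302). *DDX58*, which encodes RIG-I, rose 2.69-fold to 57.9 ± 13.9 CPM (adjusted p = 0.0406). The endosomal sensor gene *TLR3* rose 5.11-fold to 3.79 ± 1.71 CPM (adjusted p = 0.043). These 3 calls ended without non-specific siRNA replicate 1, 2 or 3 or paxillin siRNA replicate 1 or 2, where the adjusted p of the 3 genes lay between 0.0570 and 0.215. Limma-voom gave 0.0578 for *TLR3*, and limma on log2(FPKM + 1) gave 0.0595 for *DDX58* and 0.0502 for *IFIH1*. Of 18 tested genes for interferons, their receptors and their signalling, 1 was higher and 0 lower without the replicate block, against 1.18% of all genes in either direction. With it 8 were higher and 1 lower, against 11.7% and 10.7%. *IRF7*, an interferon regulatory factor named here after its values were seen, was at 42.9, 47.5 and 34.8 CPM in the control libraries and at 106, 142 and 64.9 CPM after paxillin siRNA. Its groups did not overlap, with replicate 3 lowest in each (log2 fold change 1.32 ± 0.27, adjusted p = 0.0605 without and 0.000151 with the block). The paxillin siRNA libraries lay wholly above the others for 12.5% of all genes with a count.

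**Figure D4:**
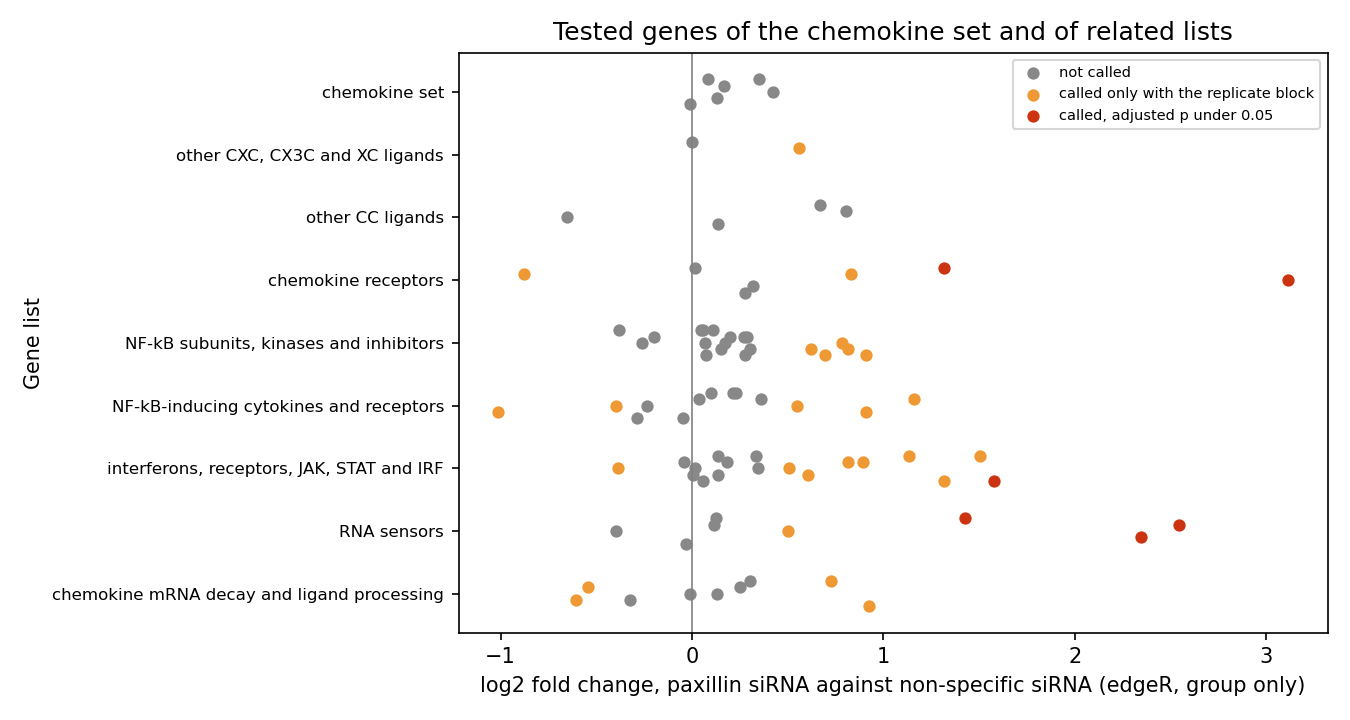
Each point is a tested gene of the chemokine set or of a related list (y axis), placed by its edgeR log2 fold change of paxillin against non-specific siRNA and coloured by whether it was called without the replicate block, only with it, or not at all. The 6 tested chemokine genes lie between -0.01 and 0.42, while the RNA sensors reach 2.54.

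Genes that control the stability of chemokine transcripts or the processing of the ligands were tested as well, 9 of 9. By edgeR 0 passed, with 5 at an unadjusted p under 0.05, against 3565 of all 15876 genes. By DESeq2 1 was higher and 1 lower, against 783 and 812 of all genes, and 0 passed by limma-voom. The block gave 2 higher and 2 lower, against 11.7% and 10.7% of all genes. *ZFP36L1*, an RNA-binding protein that promotes decay of AU-rich transcripts, was at 206 ± 12.9 and 245 ± 52.7 CPM (adjusted p = 0.432). *MAPKAPK2*, a kinase that stabilizes such transcripts downstream of p38, was at 114 ± 9.60 and 125 ± 12.1 CPM (adjusted p = 0.591).

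Markers of leukocytes, which make many chemokines, were low in all 6 libraries. Of 14 such genes, 2 passed the count filter and 0 were called by edgeR, DESeq2 or limma-voom, with 1 at an unadjusted p under 0.05. Their summed level was 1.62 to 2.10 CPM with non-specific and 2.77 to 3.28 CPM with paxillin siRNA. *CD14*, which passed the filter, had 30, 25 and 17 reads with non-specific and 34, 27 and 30 with paxillin siRNA. *CD79A*, the other to pass, had 13, 7 and 7 reads and then 14, 38 and 13. In CPM its paxillin siRNA libraries all lay above the others (edgeR unadjusted p = 0.0329, adjusted p = 0.184), as for 12.5% of all genes with a count. Among the markers not tested, *CD3D* and *TYROBP* had no read in any library, and *PTPRC*, which marks all leukocytes, had 1 to 4 reads. The part of these markers in the chemokine values was not tested. Of 8 fibroblast and endothelial markers, 6 were tested and 0 called, at a summed level of 62.9 to 131 CPM with non-specific and 71.8 to 132 CPM with paxillin siRNA. Most of this sum was collagen. *COL1A1* was at 51.0 to 98.9 and 49.2 to 107 CPM, and *COL3A1* at 4.83 to 25.6 and 5.96 to 18.4 CPM.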

How the data were processed

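The 6 libraries, 3 per siRNA, are Illumina TruSeq mRNA libraries of PC3 cells, as the labels' protocols state. The titles gave the groups and the replicate numbers, and table columns were matched through the library codes in the descriptions. The first table holds estimated counts per gene, per the file headers, in which each library was scaled by 1 factor. A single read was worth 0.825 to 1.37 estimated counts, and within 0.05 it gave whole reads for 90.8% to 91.7% of the values above 0. The second table holds FPKM computed by the authors, per the file headers, whose confidence bounds were not used. Per the submitters' processing notes, Cufflinks 2.0.2 and FastQC 0.10.1 were used, with the hg19 build. Aligner, annotation, read length and strand setting: not given in the sources used here. Starts in the text are those of the table raised by 1.

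Estimated counts were rounded and tested over the whole table with edgeR 4.0.16 in R 4.3.3 (TMM, filterByExpr, which asks for about 0.355 CPM in 3 libraries, two-sided quasi-likelihood test with a term for the siRNA alone). P-values were adjusted by Benjamini-Hochberg over all genes kept. Alternatives used DESeq2 1.42.0, limma-voom and limma 3.58.1 on log2(FPKM + 1) or log2(FPKM + 0.1) of the deposited FPKM, other filters and fewer libraries. The edgeR fit without the block and limma on log2(CPM + 1) were tested on simulated counts with known changes. Those changes were placed only in genes with higher levels than *CCL5*. DESeq2, limma-voom, the replicate block and the fit with no filter were not tested in this way. No libraries of one group agreed within sampling noise (chi-square per degree of freedom of at least 30.1). Libraries that share a number deviated together from their groups (r across genes 0.34, 0.43 and 0.56), so the numbers were taken to pair the libraries, whose shared number the labels do not explain. Block values are printed where they change a call or count, and for the 6 chemokine genes of the set that passed the filter. The permutation tests did not use the replicate numbers.

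The chemokine genes and the 11 other lists were chosen with earlier results of these data known. Named genes of a list are those called without the block, or otherwise the 2 with the highest mean FPKM. Some results of the interferon and label-check lists, among them those of the gene called without the block, are not reported here. Motifs were searched in RefSeq windows of GRCh38.p14, whose coordinates are given with the sequences only.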

Additional observations from a re-analysis of the deposited data

How the results depend on the processing

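None of the 10 chemokine genes of the set was called under the alternatives tried, except without paxillin siRNA replicate 3. Leaving out 1 library gave 0 to 2 of them called higher and 0 lower. The added fit without replicate 3 of both groups, chosen after seeing the data, gave 2 higher. Signs of the small fold changes were not stable. Over fits that left out 1 library the log2 fold change ranged from -0.33 to 0.32 for *CXCL1*, -0.28 to 0.40 for *CXCL2*, -0.066 to 0.68 for *CXCL3*, -0.11 to 0.52 for *CXCL5*, -0.40 to 0.24 for *IL8*, -0.10 to 0.64 for *CCL5*, -0.12 to 0.21 for *CXCL6* and -0.036 to 0.38 for *CCL28*. The cause was not tested. Without replicate 2 of both groups *CXCL1*, *CXCL2*, *CCL5* and *CCL28* were at -0.089, -0.039, -0.11 and -0.15, without replicate 3 of both *CXCL1* and *CXCL6* at -0.027 and -0.21, and without replicate 1 of both *IL8* at 0.22. *CXCL6*, at 0.00, was at -0.0089 with no filter, -0.0033 on counts divided by the value of 1 read, -0.045 on log2(FPKM + 1) with and without a filter and -0.062 on log2(FPKM + 0.1).

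Over all genes, 140 were called higher and 48 lower. The counts were 1858 and 1703 with the replicate block, 783 and 812 by DESeq2, 215 and 88 with no filter on low counts, 23 and 10 on log2(FPKM + 1), 46 and 17 on log2(FPKM + 0.1), and 0 and 0 by limma on log2(FPKM + 1) with no filter, where 3968 had an unadjusted p under 0.05. Leaving out 1 library gave 0 to 1169 higher and 0 to 1271 lower. Leaving out replicate 1, 2 or 3 of both groups gave 0, 11 and 1223 higher and 0, 2 and 1203 lower. The replicate block changed no call among the 10 chemokine genes of the set, while of the other ligands it added *CXCL16*. Depth limits *CXCL10*, *CXCL11*, *CCL2* and *CCL20*, with at most 13 reads in a control library.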

Other observations

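Ratios among the 3 GRO genes were chosen after their values were seen, so the tests on them support no difference. The ratio of *CXCL3* to *CXCL1* CPM was 0.385, 0.381 and 0.367 in the control libraries and 0.493, 0.503 and 0.415 in the paxillin siRNA replicates. The groups did not overlap, at means of 0.377 ± 0.00946 and 0.470 ± 0.0485 (SD, n = 3), with p = 0.1 by a two-sided exact permutation test, which cannot go lower. The ratio of *CXCL3* to *CXCL2*, which shares *CXCL3* with the first, gave the same p, at 0.400 ± 0.00741 and 0.474 ± 0.0259 (exact permutation test, n = 3). The ratio of *CXCL1* to *CXCL2* estimated counts overlapped between the groups, from 0.978 to 1.07 over the 6 libraries (exact permutation p = 0.4). The reads of these paralogs may be shared, and the part of that in the ratio was not tested.

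Interferon genes were also detected at a few reads, named here after their values were seen. *IFNB1*, which encodes interferon beta, had 1, 7 and 0 reads in the control libraries and 7, 24 and 6 after paxillin siRNA. *IL28A*, an interferon lambda gene, had 2, 2 and 0 reads and then 7, 14 and 1. As with *CXCL11*, paxillin siRNA replicate 2 held the most reads. *CXCL9*, the third CXCR3 ligand, had 0, 1 and 0 reads and then 6, 9 and 1. In the unfiltered edgeR fit the adjusted p was 0.212 for *IFNB1*, 0.286 for *IL28A* and 0.166 for *CXCL9*.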
